A study of Mus musculus with 35 samples.

Results

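Twist1, Twist2, Snai1, Snai2, Zeb1 and Zeb2 are the 6 transcription factor genes best known for driving the change of epithelial into mesenchymal cells, and they are described here through the chromatin around them while fibroblasts were turned into pluripotent cells. They were chosen by name, and they are 6 of 21631 protein-coding genes on chromosomes 1 to 19 and X of the gene table (GRCm38.p6). Every peak over one of these genes or within 100 kb of it was taken from 22 peak lists. This gave 118 of 106500 regions of acetylated histone H3 (H3K27ac), which marks promoters and enhancers in use, and 28 of 37140 regions bound by KLF4.

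Twist1 and Twist2 are basic helix-loop-helix proteins, Snai1 and Snai2 (also called Snail and Slug) are zinc finger proteins, and Zeb1 and Zeb2 carry zinc finger clusters and a homeodomain. The Snai and Zeb proteins bind E-boxes and repress epithelial genes such as the cadherin gene Cdh1, while Twist1 is also a factor of mesoderm and bone. Fibroblasts are mesenchymal cells, and when the reprogramming factors act on them they pass through a mesenchymal-to-epithelial transition, in which mesenchymal regulators are switched off and epithelial junction genes are switched on. KLF4 is one of the reprogramming factors and is also a factor of epithelial tissues.

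The mouse embryonic fibroblasts (MEF) were of strain C57BL/6 x 129 and carried the OKSM cassette in Col1a1 (Pou5f1, Klf4, Sox2 and Myc under doxycycline control) and the M2rtTA transactivator in Rosa26. The labels of both MEF libraries used here give MEF medium without doxycycline, whereas the label of the MEF input library, which was not used here, gives the doxycycline medium of the later stages. Libraries of day 3 (unsorted cells) and of days 6 and 9 (cells sorted as SSEA+) came from fibroblasts kept in ESC medium with doxycycline (1 µg/ml) plus ascorbic acid (50 µg/ml). The pluripotent reference was V6.5, an embryonic stem cell (ESC) line not derived from these fibroblasts, grown on irradiated feeder cells with serum and LIF. The 2i ESC libraries had in addition a MEK inhibitor (1 µM) and a GSK3 inhibitor (3 µM). H3K27ac had 2 libraries of MEF, 3 of day 3, 3 of day 6, 2 of day 9 and 2 of ESC, and KLF4 had 2 each of day 3, day 6, day 9, ESC and 2i ESC. No label says that libraries of a group came from separate cultures or animals, so p-values measure only the spread between these libraries.

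The lists differed in length, and this touches every count below. The H3K27ac lists held 88070 and 88347 peaks in MEF, 41471 to 50836 at day 3, 17493 to 22462 at day 6, 43974 and 45506 at day 9, and 81231 and 81971 in ESC, and the KLF4 lists held 21129 to 34640. Read depth is unknown, and where no peak was called there may still be signal. For this reason the level near a gene is given as the base pairs under peaks in its window per Mb covered by the whole list of that library, written bp per Mb. All 10 fibroblast markers (Col1a1 and Pdgfra among them) had an H3K27ac peak in both MEF libraries, 5 to 7 had one at day 3, 2 or 3 at day 6, 3 or 4 at day 9, and 4 or 5 in ESC. Of 10 ESC markers, 3 or 4 had a peak in MEF and at day 3, 2 or 3 at day 6, and all 10 at day 9 and in ESC. All 5 endothelial markers also had a peak in both MEF libraries, against 1 to 3 in the other 10 libraries, while blood markers had 1 or 2 of 5, keratinocyte markers 0 to 3 of 4, and neural markers 0 or 1 of 5 outside ESC (4 of 5 in ESC). In bulk chromatin, fewer fibroblasts and less acetylation per cell cannot be told apart, and the part of the feeder cells in the ESC values was not tested.

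The promoters of 4 of the 6 genes are in the RefSeq promoter table (GRCm38.p6), and 3 of them lay under KLF4 peaks, so the 250 bases before their start sites are shown first. Capitals mark GGGCG or GGGTG, the core letters of KLF-type sites, on either strand (CGCCC or CACCC on the strand printed). Positions count back from the start site. Twist2 is added because no KLF4 peak of any of the 10 libraries overlapped its 250 bases. The table holds no promoter of Snai2 or Zeb1.
Twist1, chr12:33957421-33957670, plus strand: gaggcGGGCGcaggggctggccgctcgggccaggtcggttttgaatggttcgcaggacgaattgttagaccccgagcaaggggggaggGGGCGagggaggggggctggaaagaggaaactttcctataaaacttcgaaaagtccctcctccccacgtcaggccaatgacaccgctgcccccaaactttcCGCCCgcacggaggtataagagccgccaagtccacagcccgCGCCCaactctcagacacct
Twist2, chr1:91801211-91801460, plus strand: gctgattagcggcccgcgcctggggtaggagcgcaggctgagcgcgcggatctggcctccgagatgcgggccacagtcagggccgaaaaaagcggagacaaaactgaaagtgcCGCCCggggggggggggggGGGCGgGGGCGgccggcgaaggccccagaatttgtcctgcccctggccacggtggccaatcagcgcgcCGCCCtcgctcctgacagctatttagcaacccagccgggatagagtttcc
Snai1, chr2:167537945-167538194, plus strand: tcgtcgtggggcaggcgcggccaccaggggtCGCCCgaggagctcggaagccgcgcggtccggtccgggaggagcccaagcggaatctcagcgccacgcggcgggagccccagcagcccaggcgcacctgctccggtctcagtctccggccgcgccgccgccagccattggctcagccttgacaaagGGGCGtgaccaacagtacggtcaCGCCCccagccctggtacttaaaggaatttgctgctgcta
Zeb2, chr2:45117443-45117692, minus strand: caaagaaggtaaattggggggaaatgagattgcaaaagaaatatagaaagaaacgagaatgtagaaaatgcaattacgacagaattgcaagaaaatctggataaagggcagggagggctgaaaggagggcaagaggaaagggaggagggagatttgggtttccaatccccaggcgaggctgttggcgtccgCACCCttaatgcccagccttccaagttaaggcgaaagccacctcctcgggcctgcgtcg
Twist1 and Twist2 each held 4 GGGCG matches, Snai1 held 3, and this start of Zeb2 held 1 GGGTG match at -59. Snai1 also held 1 CACCTG, the E-box form bound by Snai and Zeb proteins, at -126, and the other 3 promoters held no E-box (CANNTG). These letters are common: of 32536 promoters of the same length, 69.7% held GGGTG or GGGCG, 66.2% held CANNTG and 17.3% held CACCTG. A match is a description of the sequence and not of binding.

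H3K27ac fell over the stages at 5 of the 6 genes. In the main setting, with 100 kb to each side, the level near Twist2 and Twist1 dropped most steeply and Zeb2 and Zeb1 followed. Snai1 lost the least among those called, and Snai2 was not called. The fall was measured as the slope of log2(bp per Mb + 10) per stage, in the order MEF, day 3, day 6, day 9, ESC, with a two-sided exact permutation test over all 1663200 labelings of the 12 libraries and Benjamini-Hochberg adjustment over 20891 genes. Across these genes 8.52% were called lower and 21.8% higher at an adjusted p of 0.05, and the median slope was 0.073 against -0.587 for the 6 genes.

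**Figure D1:**
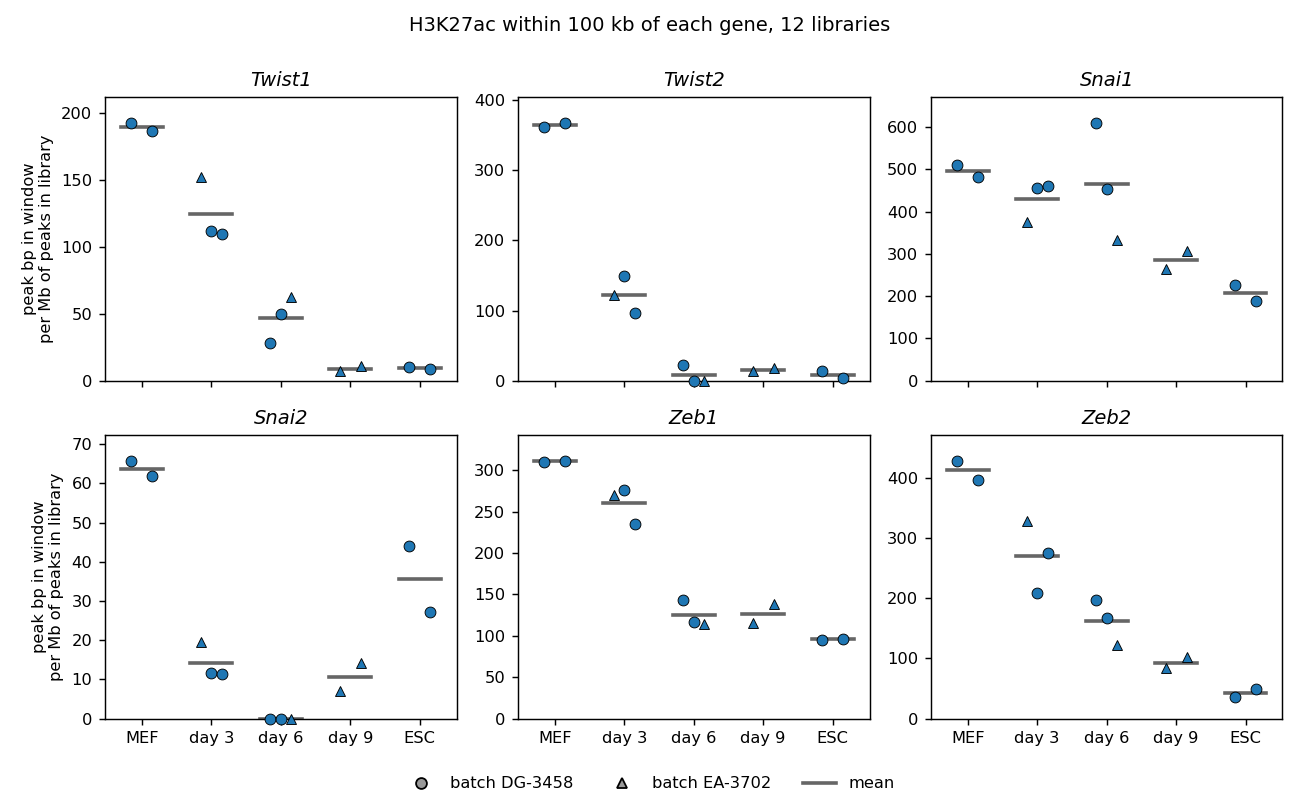
H3K27ac level near each gene: the vertical axis gives the base pairs under peaks in the gene and 100 kb to each side per Mb covered by the library's list, the horizontal axis the stage. Each point is 1 library (shape: batch) and each bar a stage mean; the MEF points are above all others near Twist1, Twist2, Zeb1, Zeb2 and Snai2, whereas near Snai1 a day 6 library (610.2 bp per Mb) is the highest.

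Near Twist1 the H3K27ac level was 192.5 and 186.6 bp per Mb in MEF, 151.8, 112.1 and 109.4 at day 3, and 28.11, 49.85 and 62.48 at day 6. It was 6.973 and 11.04 at day 9 and 10.22 and 8.512 in ESC. MEF, day 3 and day 6 did not overlap, and day 9 and ESC lay together at the bottom. The slope was -0.97 per stage (exact permutation p = 2.41e-06, adjusted p = 0.000306), and only 0.488% of the genes tested had a lower one. Within batches the slope was -0.862 in DG-3458, which held MEF, day 3, day 6 and ESC, and -1.585 in EA-3702, which held days 3, 6 and 9.

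Near Twist2 the level was 362.2 and 367.6 bp per Mb in MEF and 122.2, 148.6 and 96.82 at day 3. At day 6 it was 22.99 in 1 library and 0 in the other 2, followed by 13.5 and 18.29 at day 9 and 13.55 and 3.887 in ESC. Every later library was below every MEF library, and day 6, day 9 and ESC overlapped. The slope was -1.13 (adjusted p = 0.0132, exact permutation), with 0.187% of genes lower, and it was -1.119 and -0.948 within the batches.

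Zeb2 fell at each step. Its H3K27ac level was 428.4 and 397.2 bp per Mb in MEF, 327.8, 208.9 and 275.2 at day 3, 197.6, 167.7 and 123 at day 6, 83.53 and 102.6 at day 9, and 36.57 and 49.61 in ESC. No stage overlapped the next one. The slope was -0.74 with p = 6.01e-07, the smallest that the exact permutation can give (adjusted p = 0.00019), 1.5% of genes were lower, and the slopes within batches were -0.740 and -0.815.

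Near Zeb1 the level was 310.1 and 311.3 bp per Mb in MEF, 270.2, 276 and 234.9 at day 3, 143.5, 116.9 and 114.1 at day 6, 115 and 138.1 at day 9, and 95.33 and 95.93 in ESC. MEF and day 3 stood above the later libraries, among which days 6 and 9 overlapped. The slope was -0.43 (adjusted p = 0.000931, exact permutation), with 6.79% of genes lower and -0.423 and -0.462 within batches.

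Snai1 shares its window with Slc9a8, Spata2, Rnf114 and Ube2v1, and its slope was the shallowest of the 5. The level was 509.7 and 481.8 bp per Mb in MEF, 375.3, 457.3 and 460.4 at day 3, 610.2, 453.7 and 333.7 at day 6, 264.9 and 306.1 at day 9, and 225.9 and 189.5 in ESC. The day 6 libraries spread over the whole range of MEF and day 3, and only day 9 and ESC were below all the rest. The slope was -0.30 (adjusted p = 0.00948, exact permutation), 11.7% of genes were lower, and the slopes within batches were -0.302 and -0.196.

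Near Snai2 the level was 65.75 and 61.84 bp per Mb in MEF, 19.51, 11.7 and 11.26 at day 3, 0 in all 3 libraries of day 6, 7.034 and 14.17 at day 9, and 43.96 and 27.09 in ESC. It was lowest at day 6 and higher again in ESC, where both libraries were above days 3, 6 and 9 and below MEF. A straight slope does not describe this course, and it was -0.16 (adjusted p = 0.653, exact permutation).

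The window matters for the Snai genes. With only 2.5 kb to each side of the gene, and by the same exact permutation, Snai2 was called lower (slope -0.63, adjusted p = 0.0207), while Snai1 (slope -0.42, adjusted p = 0.396) and Zeb1 (slope -0.33, adjusted p = 0.0947) were not called. At this distance Snai1 had 67.37 and 71.56 bp per Mb in MEF, 45.61 to 69.46 at day 3, 0 in all 3 libraries of day 6, 0 and 8.821 at day 9, and 55.55 and 26.26 in ESC. Without division by the length of the list, Twist1 alone was still called (adjusted p = 0.0305, exact permutation), with Twist2 at 0.0968, Zeb2 at 0.104, Zeb1 at 0.429 and Snai1 at 0.481. The slopes stayed close to those with division, at -1.15 for Twist2, -0.75 for Zeb2, -0.43 for Zeb1 and -0.29 for Snai1. Among all genes 57 were called lower in this setting, against 1779 with division. Twist2 was also not called when peaks rather than base pairs were counted (adjusted p = 0.0761, exact permutation) or with a pseudocount of 1 (0.0645), nor was Snai1 in the count of peaks (0.177).

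Of the 118 H3K27ac regions near the 6 genes, 96 were fibroblast regions, with a peak in both MEF libraries. A fibroblast region was counted as lost from a stage on when no library of that stage or of any later one had a peak over it. By this rule 58 of the 96 (60.4%) were lost from day 3 on, against 52.6% of 60128 fibroblast regions of the genome, and 16 from day 6 on (16.7%, genome 10.5%). None was lost from day 9 on (genome 0.412%), 2 had a peak in at least 1 library of day 9 and none in ESC (genome 6.13%), 5 had a peak in 1 of the 2 ESC libraries (genome 3.87%) and 15 were present in both (15.6%, genome 26.4%). A peak in at least 2 libraries was found over 26 of the 96 at day 3 (27.1%, genome 31.2%), over 8 at day 6 (8.33%, genome 18.1%), over 14 at day 9 (14.6%, genome 27.1%) and over 15 in ESC.

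The share lost from day 3 on was 6 of 8 regions near Twist1, 12 of 17 near Twist2, 16 of 23 near Zeb2, 14 of 22 near Zeb1, 2 of 3 near Snai2 and 8 of 23 near Snai1. From day 6 on another 1, 4, 3, 5, 0 and 3 were lost, in the same order. Snai1 held 9 of the 15 regions still present in ESC, 2 each lay near Zeb1 and Zeb2, 1 each near Twist1 and Twist2, and Snai2 held none.

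**Figure D2:**
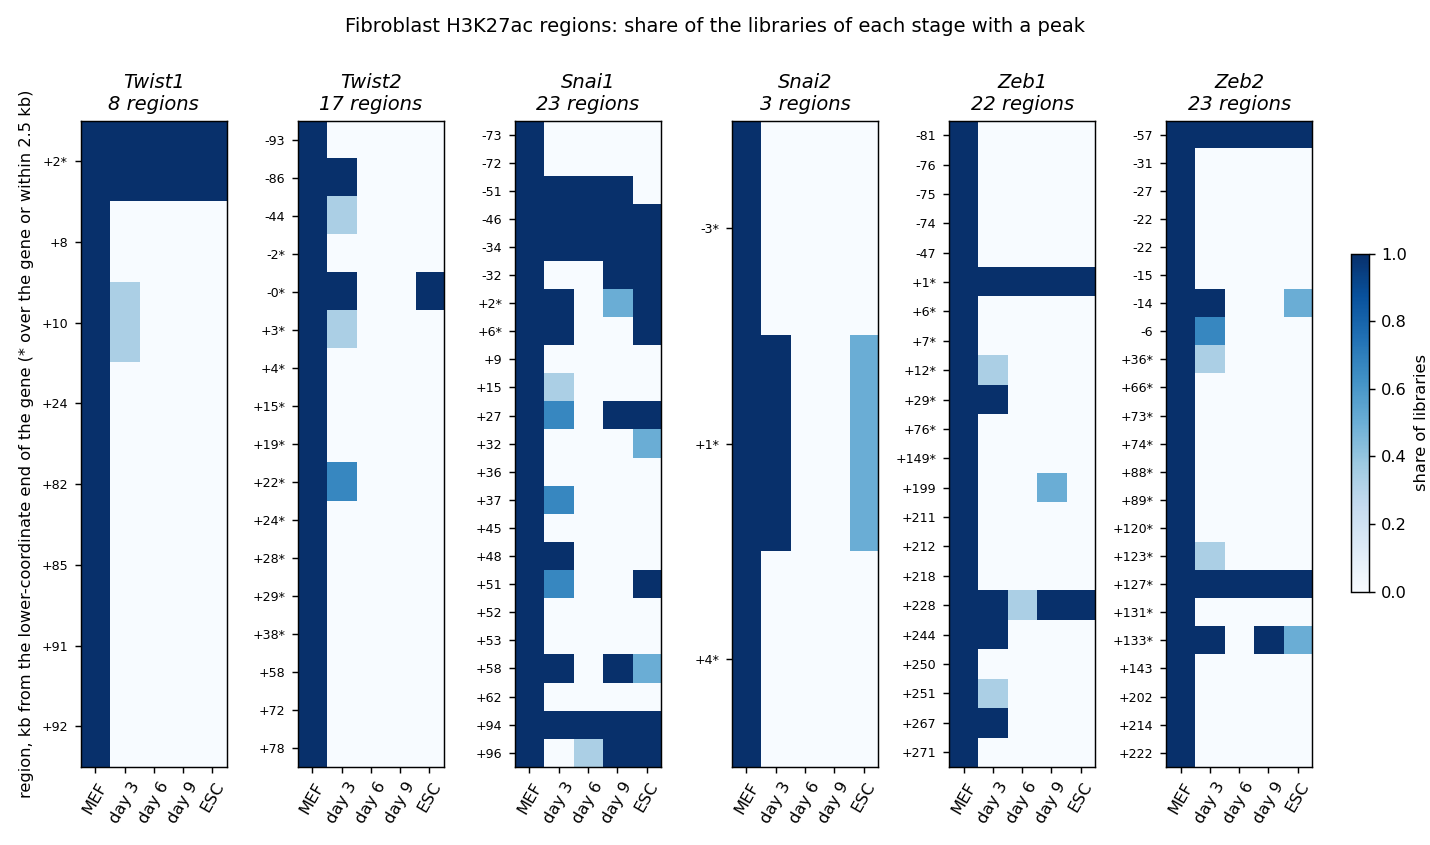
Each row is 1 of the 96 fibroblast H3K27ac regions, labelled with its distance in kb from the lower-coordinate end of the gene, and each column a stage; the shade gives the share of that stage's libraries with a peak. Most rows are blank after MEF, and the rows with a peak in all 12 libraries are the Twist1 gene, the lower end of Zeb1, an intragenic region of Zeb2, and regions over Rnf114, Ube2v1 and Gtdc1.

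Position and length went with the loss. Of 16 fibroblast regions within 2.5 kb of an end of a protein-coding gene 5 were lost from day 3 on (31.2%, genome 17.3%), and of 80 farther away 53 (66.2%, genome 64%). The lost regions had a median length of 687 bp and the others of 2553 bp, compared with 718 and 1974 bp in the genome. Regions were merged over all stages, so later peaks can lengthen a region that was kept. Length is therefore not independent of the loss. Of 46 regions under 1 kb 89.1% were lost from day 3 on (genome 80.4%), and of 50 longer ones 34% (genome 30.6%).

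**Figure D3:**
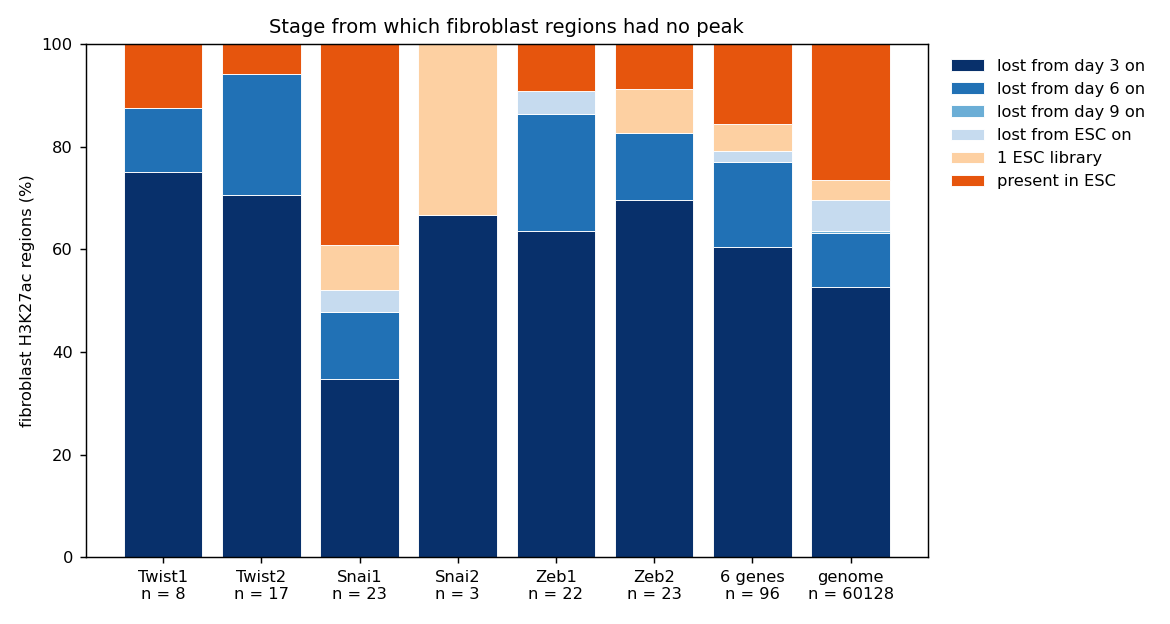
Share of the fibroblast H3K27ac regions (vertical axis, percent) by the stage from which no library had a peak, for each gene, for the 6 genes and for the genome; n is the number of fibroblast regions. The share lost from day 3 on is 60.4% for the 6 genes and 52.6% for the genome, and the share still present in ESC is largest near Snai1 (9 of 23 regions).

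The count of lost regions rests on the length of the lists. With the 17493 best peaks of every library, which makes all lists as long as the shortest, 25 fibroblast regions were found and 10 of them (40%) were lost from day 3 on, against 29.4% of 15277 in the genome. In these lists of equal length the regions at the genes themselves went at different stages. Within Twist2, the regions 15.1 and 22.1 kb past the start were lost from day 3 on. The region at the Twist2 start, the region at the Zeb2 start, the Snai2 gene and the end of the Snai1 gene were lost from day 6 on, and the Twist1 gene, with a peak in all 3 libraries of day 3 and of day 6, from day 9 on. The lower-coordinate end of Zeb1 had a peak in both libraries of MEF, in all of day 3 and day 6, in neither of day 9 and in both of ESC. The intragenic region of Zeb2 had peaks in all libraries to day 6, in none of day 9 and in 1 of ESC. Lost from day 3 on were 4 of 5 regions near Twist2, 3 of 10 near Snai1, 2 of 5 near Zeb2, 1 of 2 near Twist1, neither of the 2 near Zeb1 and not the 1 near Snai2. Leaving out the first or the second MEF library raised the full count to 90 of 135 (66.7%) or 96 of 143 regions (67.1%), since 1 library then defines a fibroblast region. The genome share rose as well, to 61.7% of 82682 and 61.5% of 82388 regions. By gene, leaving out the second gave 26 of 32 near Twist2, 10 of 13 near Twist1 and 14 of 32 near Snai1, and leaving out the first gave 30 of 37 near Zeb2.

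Twist1 kept a peak over its gene throughout. The region chr12:33955932-33964267 (8336 bp), which covers the whole gene and its promoter, had a peak in all 12 libraries. The authors' fold enrichment of its strongest peak was 20.3 and 16.7 in MEF, 7.71, 11.3 and 9.09 at day 3, 3.84, 3.6 and 4.72 at day 6, 2.4 and 3.99 at day 9, and 4.7 and 4.64 in ESC. Folds are the authors' values within each list and were not tested between stages. Ranked within the MEF lists by strength, the peak had a mean rank in the top 7.72%. The other 7 regions were fibroblast regions between 8.2 and 91.5 kb past the start. The strongest, 82.5 kb past the start (chr12:34038763-34041591, 7.4 kb from an end of the deacetylase gene Hdac9), had a fold of 22.8 and 22.6 in MEF, a mean rank in the top 7.43%, and no peak in any of the 10 later libraries. The next by rank lay 10.1 kb past the start and kept a peak in 1 of 3 libraries at day 3.

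Twist2 held a dense group of fibroblast regions. Its promoter region (chr1:91799246-91803503, 4258 bp) had a fold of 11.1 and 12.4 in MEF and 4.15, 4.66 and 4.88 at day 3, no peak in the 5 libraries of days 6 and 9, and 3.04 and 3.27 in ESC. Within the gene, which is 46574 bp long, 9 further fibroblast regions lay between 3.1 and 38.2 kb past the start, of which 7 were lost from day 3 on and 2 from day 6 on. One of the latter, 22.0 kb past the start (chr1:91821417-91825464), had a mean rank in the top 2.6% in MEF, with folds of 31.2 and 22.9, and had 3.33 and 4.23 in 2 libraries of day 3. The strongest region of the window lay 57.5 kb past the start, beyond the gene (chr1:91855967-91862018, 6052 bp). Its folds of 34.5 and 29.8 in MEF put it in the top 2.41%, and no later library had a peak there.

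In the full lists the Snai1 gene had no H3K27ac peak of its own at day 6 and had peaks again in ESC. A region over most of the gene (chr2:167538218-167542111) had a fold of 6.83 and 7.43 in MEF and 2.77, 3.33 and 3.58 at day 3. It had no peak at day 6, 3.47 in 1 of 2 libraries at day 9, and 5.03 and 3.79 in ESC. The region over its end (chr2:167542671-167544953) had 15.3 and 15.2 in MEF, 3.63 to 6.99 at day 3, none at days 6 and 9, and 4.04 and 4.07 in ESC. The ESC peaks over most of the gene and over its end had mean ranks of 50.4% and 54.3%, in lists far longer than those of day 6. With lists of equal length the region over the end had no ESC peak. The region over most of the gene was then not a fibroblast region. The regions of this window with a peak in all 12 libraries belong to neighbours: the shared end of Spata2 and Rnf114 46.0 kb before the start, a region within Rnf114 at 34.5 kb before, and an end of Ube2v1 93.6 kb past the start. Their mean ranks in the MEF lists were the top 1.21%, 9% and 2.8%.

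Snai2 had 3 fibroblast regions, all at the gene. The main one (chr16:14704405-14709117, 4713 bp) had a fold of 19 and 14.3 in MEF and 3.76, 4.32 and 4.88 at day 3, no peak at days 6 and 9, and 2.96 in 1 ESC library. In ESC the acetylation of this window lay elsewhere. Both ESC libraries had a peak over 5 regions without any peak in MEF, at day 3 or at day 6 (1 of them, 27.9 kb below the gene, also had a peak in 1 library of day 9), 4 of them 19.8 to 29.9 kb below the gene in coordinates and 1 of them 88.7 kb above its lower end. The strongest (chr16:14678306-14678922) had a fold of 8.22 and 6.32 and a mean rank in the top 22.8% of the ESC lists.

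Zeb1 kept a peak at its lower-coordinate end and lost those of its gene body. The region at this end (chr18:5590783-5594623, 3841 bp) had a peak in all 12 libraries, with a fold of 25.9 and 31.7 in MEF, 5.54 to 9.42 at day 3, 3.81 to 4.53 at day 6, 4.39 and 5.19 at day 9, and 9.89 and 8.47 in ESC. Its mean rank in the MEF lists was the top 4.59%. Within the 184142 bp of the gene 6 other fibroblast regions had no peak after day 3, and 1 region 160.4 kb from the lower end had a peak only in ESC (both libraries, top 24.7%). Beyond the gene, the strongest fibroblast region (228.4 kb from the lower end, chr18:5818403-5821132) had folds of 21.1 and 24.6 in MEF and 4.98 and 6.62 in ESC, with peaks in all 3 libraries at day 3, 1 of 3 at day 6 and both at day 9. At 283.6 kb a region without a peak in MEF and at day 3 had one in 1 library of day 6, in both of day 9 (fold 14.1 and 15.9) and in both of ESC (6.69 and 4.02).

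Zeb2 had strong peaks at 2 places near its start sites, which took different courses. The region at the first start site (chr2:45115136-45118000) had a fold of 25.4 and 28 in MEF and 10.5, 5.65 and 4.88 at day 3, no peak at day 6, 2.37 and 2.76 at day 9 and 3.51 in 1 ESC library. The region 7.2 kb into the gene (chr2:45107225-45113313, 6089 bp), which overlaps the antisense gene Zeb2os and further start sites in the promoter table, kept a peak in all 12 libraries. Its folds were 34.8 and 28.4 in MEF, 17.6, 13 and 10 at day 3, 3.59 to 4.19 at day 6, 3.14 and 4.17 at day 9, and 8.36 and 6.05 in ESC. Past the end of the gene a pair of strong fibroblast regions lay 161.1 and 139.9 kb from the start (chr2:44954113-44958492 and chr2:44975378-44979748), with folds of 27.8 to 33 in MEF. The first had no peak later, and the second had 2.99 and 3.58 in 2 libraries of day 3 and none after that. An end of the neighbour Gtdc1, 190.7 kb from the start, was acetylated in all 12 libraries.

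Some regions had a peak at day 3 and none in MEF. Near Zeb1, 4 regions (102.9, 103.5, 247.5 and 265.0 kb from the lower end) had peaks in at least 2 libraries at day 3 and in no MEF, day 6 or ESC library, and near Zeb2 1 region did (12.8 kb below the gene). The one at 103.5 kb also had a peak in 1 library of day 9. These were weak peaks, with mean ranks at day 3 between 60.1% and 69.8%. How common such regions are in the genome was not counted.

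KLF4 peaks were present near all 6 genes, and their slopes over day 3, day 6, day 9 and ESC did not pass the test at any of them. Of 20583 genes tested 0% were called lower and 0% higher by the exact permutation with adjustment (smallest p it can give 0.000794), and at an unadjusted p of 0.05 there were 1888 lower (9.17%) and 2531 higher (12.3%). With lists cut to the same 21129 best peaks 166 genes were called lower and 192 higher, none of them among the 6. The ESC libraries came from batches that held no other stage of this comparison, so batch and stage cannot be told apart there. Within EA-3702, which held days 3, 6 and 9, the slopes were -1.451 for Twist1, -0.609 for Twist2, 0.243 for Snai1, 0.213 for Snai2, -0.352 for Zeb1 and -0.229 for Zeb2. DG-4040 held 1 library each of days 3 and 6 only. Its slopes were -3.800, 1.300, 0.024, 0.692, -2.218 and -0.508 in the same order, so Twist2 went the other way.

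**Figure D4:**
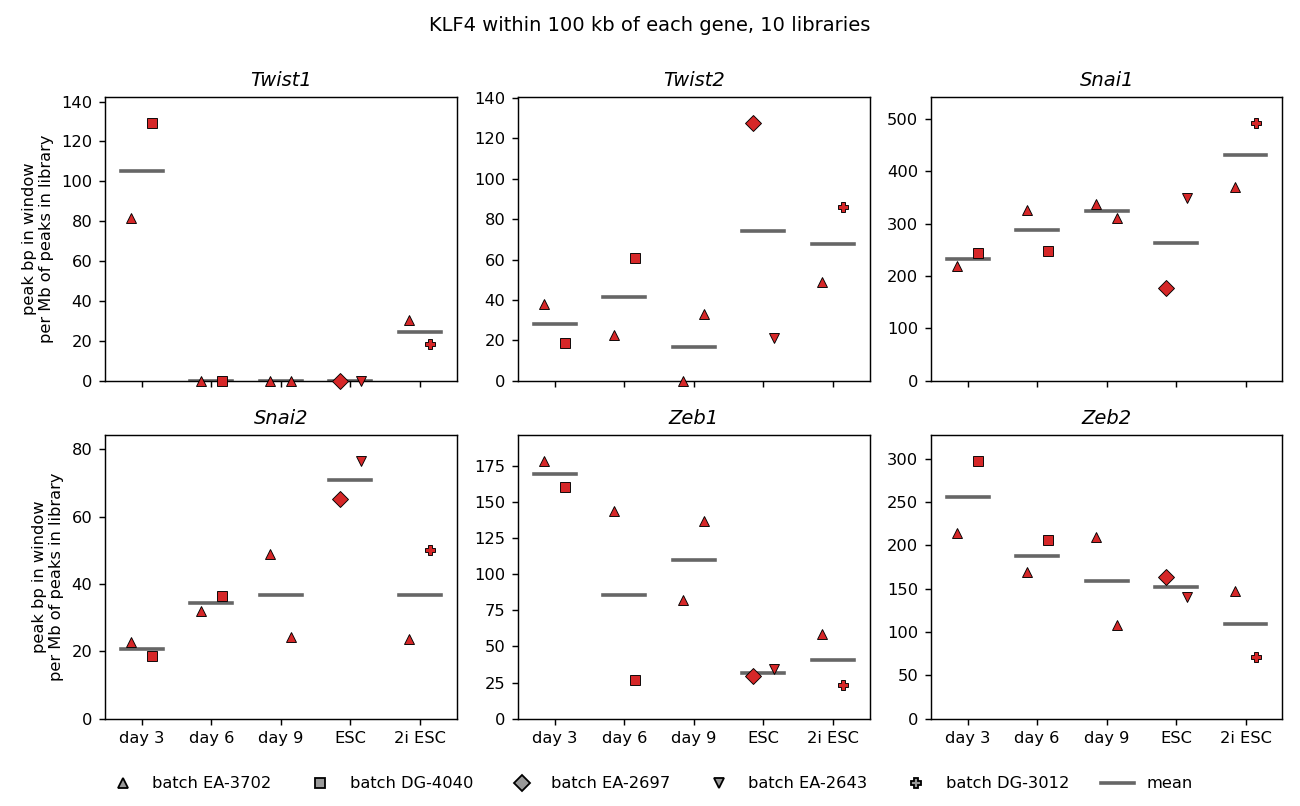
KLF4 level near each gene: base pairs under KLF4 peaks within 100 kb per Mb covered by the library's list (vertical axis) at each stage (horizontal axis), 1 point per library (shape: batch) and a bar for the mean. Near Twist1 both day 3 libraries (81.46 and 129.3) are above 0 while the 6 libraries of day 6, day 9 and ESC are at 0.

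Near Twist1 the KLF4 level was 81.46 and 129.3 bp per Mb at day 3, 0 in both libraries each of day 6, day 9 and ESC, and 30.35 and 18.57 in 2i ESC. Day 3 was above every later library of this comparison, and the slope was -1.05 (p = 0.0714, adjusted p = 0.263, exact permutation). With 6 of the 8 libraries tied at 0 this is the smallest p that the permutation can give here, so the test could not have called Twist1. Near Snai2 it was 22.89 and 18.73 at day 3, 32.09 and 36.4 at day 6, 48.79 and 24.35 at day 9, 65.33 and 76.53 in ESC, and 23.58 and 50.06 in 2i ESC. Its slope was 0.42 (p = 0.00794, adjusted p = 0.106, exact permutation), and the unadjusted p was 0.714 for peaks with a q-value of at most 0.01 and 0.125 with labels permuted within batches.

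Near Zeb1 the level was 178.6 and 160.7 bp per Mb at day 3, 144.1 and 26.7 at day 6, 82.52 and 136.9 at day 9, 29.41 and 34.07 in ESC, and 58.89 and 22.95 in 2i ESC. Near Zeb2 it was 213.8 and 297.7 at day 3, 169 and 206.3 at day 6, 210.3 and 107.8 at day 9, 163.2 and 140.1 in ESC, and 147.6 and 71.51 in 2i ESC. For both, day 3 was above ESC, with slopes of -0.57 (adjusted p = 0.295) and -0.24 (adjusted p = 0.263, both exact permutation). Near Snai1 the level was 219.9 and 244.2 at day 3, 327 and 248.5 at day 6, 337.7 and 310.7 at day 9, 176.2 and 348.2 in ESC, and 370.7 and 492.5 in 2i ESC, and near Twist2 it ran from 0 to 127.7 in the 10 libraries. Near Snai1 day 3 lay below days 6 and 9, the 2i ESC libraries were the highest, and the ESC pair spanned days 3 to 9, while near Twist2 the stages overlapped. The slopes were 0.046 for Snai1 and 0.12 for Twist2 (adjusted p = 0.838 and 0.875, exact permutation). With only 2.5 kb to each side the slope of Snai1 was 0.92 (p = 0.0151, adjusted p = 0.231, exact permutation).

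Of the 28 KLF4 regions near the 6 genes, with a peak in at least 2 libraries of a stage, 14 were present at day 3 (50%, genome 48.1% of 37140), 8 at day 6 (28.6%, genome 40.2%) and 11 at day 9 (39.3%, genome 51.5%), while ESC held 7 (25%, genome 43.4%) and 2i ESC 10 (35.7%, genome 40.5%). An H3K27ac peak of both MEF libraries covered 11 of the 28 (39.3%, genome 35.5%) and 7 of the 14 of day 3 (50%, genome 48.7%). For the later stages it covered 4 of 8 at day 6 (50%, genome 48.3%), 5 of 11 at day 9 (45.5%, genome 39.4%), 2 of 7 for ESC (28.6%, genome 42.7%) and 5 of 10 for 2i ESC (50%, genome 47.3%). Snai1 held 12 of the regions, Zeb1 and Zeb2 5 each, and Twist1, Twist2 and Snai2 2 each.

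**Figure D5:**
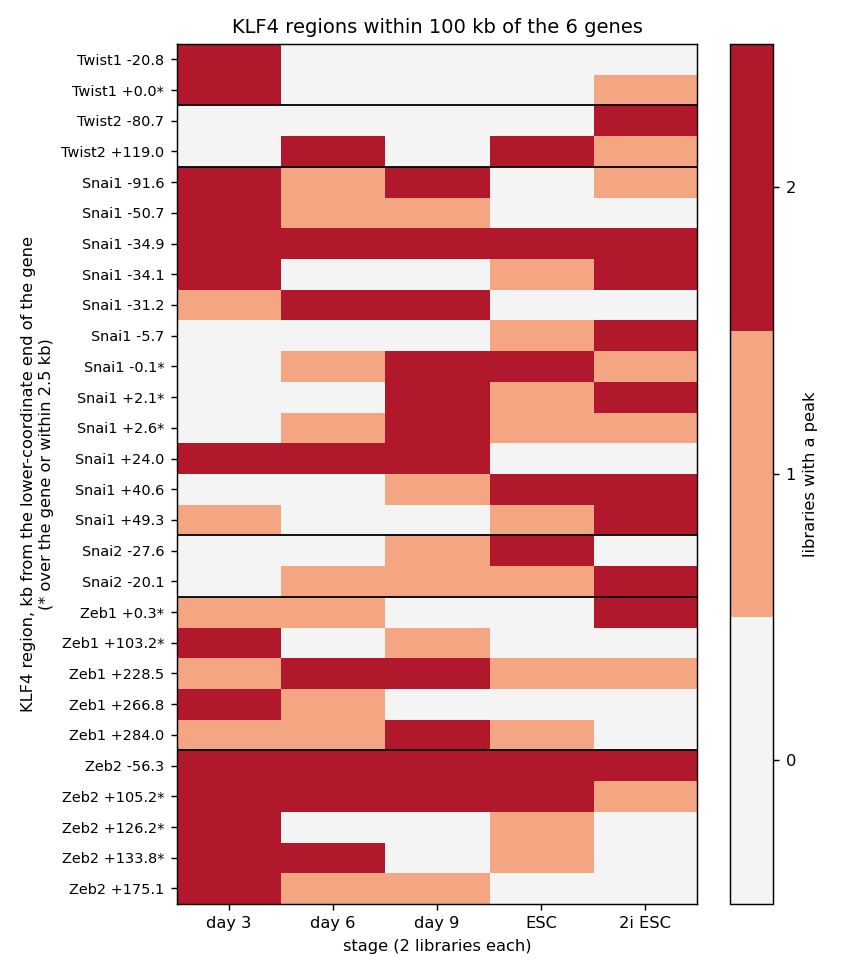
Rows are the 28 KLF4 regions, labelled with the distance in kb from the lower-coordinate end of the gene, columns the stages, and colours the number of libraries (0, 1 or 2) with a peak. Both Twist1 regions have 2 libraries at day 3, the 3 regions at the Snai1 gene have none at day 3 and 2 at day 9, and the regions 34.9 kb before Snai1 (within Rnf114) and at the Gtdc1 end have 2 at every stage.

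At day 3 KLF4 lay at the start sites of Twist1 and Zeb2, whose sequences are given above. The Twist1 peak (chr12:33957413-33957928) had a fold of 3.25 and 3.46 at day 3 and 2.37 in 1 library of 2i ESC. These are weak peaks, with a deposited -log10 q of 0.761, 2.05 and 0. A stronger day 3 peak lay 20.8 kb before the Twist1 start (fold 4.9 and 4.53, -log10 q 4.68 and 4.72), outside any H3K27ac peak of the 12 libraries. The Zeb2 start region (chr2:45116985-45117644) had a fold of 10.5 and 4.53 at day 3 (-log10 q 20.1 and 4.72), 4.16 and 2.21 at day 6, none at day 9, 3.03 in 1 ESC library and none in 2i ESC. Over the same stages the H3K27ac peak at this start was present in all 3 libraries of day 3, in none of day 6, in both of day 9 and in 1 of ESC. The day 9 peaks were weak, with a mean rank of 85.2%. In lists of equal length the start had no H3K27ac peak at day 9 or in ESC.

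A KLF4 region with a peak in both libraries of day 3, day 6, day 9 and ESC lay 28.7 kb into Zeb2 (chr2:45088452-45089012). Its fold was 11.2 and 6.92 at day 3, 6.83 and 6.18 at day 6, 4.35 and 5.47 at day 9, 6.55 and 4.84 in ESC, and 3.5 in 1 of 2 libraries of 2i ESC. An H3K27ac peak overlapped it only in 2 libraries of day 3. Near Zeb1, a region 266.8 kb from the lower end had KLF4 at day 3 (fold 6.24 and 6.66, -log10 q 10.4 and 11.3) under an H3K27ac region of MEF and day 3, and 1 weak peak of day 6 was the only later one. The region at the end of the Zeb1 window, 284.0 kb from the lower end, had its highest folds at day 9 (7.5 and 8.79), and H3K27ac peaks covered it in both libraries of day 9 and of ESC and in 1 of day 6.

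At the Snai1 gene KLF4 peaks were found after day 3. The promoter region (chr2:167537926-167538187, whose bases are printed above) had no KLF4 peak at day 3, a fold of 6.14 in 1 of 2 libraries at day 6, 3.1 and 4.94 at day 9, 3.19 and 2.17 in ESC and 2.78 in 1 of 2 in 2i ESC. Most of these peaks were weak, with a deposited -log10 q of 7.07 at day 6, 0.644 and 4.29 at day 9, 0.281 and 0.696 in ESC, and 0.368 in 2i ESC. A second region 2.1 kb into the gene had 3.2 and 4.94 at day 9, 2.86 in 1 ESC library, and 2.35 and 11.9 in 2i ESC, where the latter ranked in the top 0.383% of its list. Another, 2.6 kb into the gene, had peaks in both libraries of day 9 as well. No H3K27ac peak overlapped the promoter region in any library. The KLF4 region common to all 10 libraries in this window lay 34.9 kb before the start within Rnf114, with folds between 4.1 and 11.6.

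Near Snai2 both KLF4 regions lay next to the H3K27ac regions found in both ESC libraries. The region 27.6 kb below the gene (chr16:14678059-14678415) had a fold of 4.24 and 3.38 in ESC, 2.45 in 1 library of day 9 and no peak at days 3 and 6 or under 2i, and H3K27ac peaks overlapped it in both ESC libraries and in 1 library of day 9. The region 20.1 kb below had a peak in both libraries of 2i ESC (fold 3.19 and 3.28), in 1 library each of day 6, day 9 and ESC, and in none of day 3. Near Twist2 a region 80.7 kb before the start was present only in 2i ESC (fold 5.35 and 4.79), and one 119.0 kb past the start at day 6 (3.16 and 2.39) and in ESC (3.2 and 3.49), with 2.61 in 1 library of 2i ESC.

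Other genes of the epithelial-mesenchymal axis were counted from lists chosen with earlier results of these data known. Of 10 further transcription factors linked to the mesenchymal state, by the same exact permutation, H3K27ac fell at 4, rose at 1 and was not called at 5, with a median slope of -0.15, where 8.52% of all genes were called lower and 21.8% higher. Those that fell were Prrx1, a homeobox factor of limb mesenchyme (slope -1.19, adjusted p = 0.00019, exact permutation), the forkhead genes Foxc2 (-0.68, 0.00599) and Foxc1 (-0.53, 0.000703), and Tcf4 (-0.45, 0.022), and Klf8 rose (0.48, 0.0143). Of 12 mesenchymal structural genes and targets 6 fell, none rose and 6 were not called (median -0.32, all genes 8.52% lower and 21.8% higher). Among those that fell were Acta2, the smooth muscle actin gene (slope -1.07, adjusted p = 0.000931), Lox, which crosslinks collagen (-1.01, 0.000552), and Vim, the vimentin gene (-0.61, 0.00177), all by exact permutation.

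Of 17 epithelial genes 15 were in the protein-coding table, and Mir200b and Mir200c were not. None fell, 6 rose and 9 were not called (median 0.25), beside 8.52% of all genes called lower and 21.8% higher. The genes that rose were Dsp, coding for a desmosome plaque protein (slope 0.66, adjusted p = 0.00477, exact permutation), Epcam, coding for an adhesion molecule (0.59, 0.00236), the claudin genes Cldn3 (0.51, 0.000306) and Cldn4 (0.50, 0.00752), which are neighbours and share much of their windows, Ovol2 (0.34, 0.00359), a repressor of mesenchymal genes, and Crb3 (0.26, 0.0247), a polarity gene. Cdh1 itself, the E-cadherin gene, had a slope of 0.58 (adjusted p = 0.0837, exact permutation). Its level went from 270.8 ± 1.65 bp per Mb in MEF (SD, n = 2) to 83.53 ± 11.7 at day 3 (n = 3), 112.1 ± 27.1 at day 6 (n = 3) and 562.3 ± 19.2 at day 9 (n = 2), and ESC had 719.1 ± 23.7 (n = 2). For KLF4 no gene of these 3 lists was called, but neither was any of the 20583 genes tested (0% lower and 0% higher).

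The genes whose H3K27ac levels ran most like a member's over the 12 libraries were found by Pearson's r of the log2 values, as a description in which list length and stage are shared. Twist1 was closest to Tmem140 (0.977), Veph1 (0.972) and Cyren (0.967), and Twist2 to Gbp7 (0.996), Gbp3 (0.989) and Lrrc32 (0.987). Snai1 was closest to Vamp5 (0.949), Wnt2b (0.948) and Hmgb1 (0.947), and Snai2 to C1qb (0.977), Olfr224 and Olfr328 (both 0.968). Zeb1 was closest to Igf2r (0.983), Plau (0.983) and Plec (0.980), and Zeb2 to Vcl (0.983), Col24a1 (0.982) and Cubn (0.980). Tmem140 and Cyren, Gbp7 and Gbp3, and Olfr224 and Olfr328 are pairs on the same chromosome. Genes whose windows overlap each other were not left out, so such pairs need not be separate matches. Among the members, Twist2 and Zeb1 (0.953) and Twist1 and Zeb2 (0.911) were the closest pairs, and Snai1 and Snai2 (-0.170) the least alike.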

How the data were processed

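H3K27ac (12 libraries) and KLF4 (10 libraries) were measured by ChIP-seq of mouse cells, and 13 input libraries were not used here. Per the submitters' processing notes, the authors used cutadapt 1.8.1, Bowtie2 2.2.5, deepTools 2.3.6 and MACS2 2.1.1 with build mm10, and they deposited 1 peak list per library with a score, a fold enrichment, a -log10 p and a -log10 q for each peak. The deposited lists hold no read counts, so depth and its precision are unknown. Which libraries served as inputs of which call is not given in the sources used here.

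Peaks on chromosomes 1 to 19 and X were set against protein-coding genes of GRCm38.p6 with 100 kb to each side. The level was the base pairs under peaks in this window per Mb of the list, tested as log2(level + 10) by its slope on the stage order with a two-sided exact permutation and Benjamini-Hochberg adjustment at 0.05. Genes with no peak in any of the libraries tested for a mark were left out, and the 2i ESC libraries were not among those tested. Regions were merged peaks found in at least 2 libraries of a stage (overlap of 1 bp or more). The slope test was checked on simulated log2 values with normal noise, and the region classes on simulated peak lists. Python 3.11.15, numpy 2.4.6, pandas 2.3.3, numba 0.67.0 and matplotlib 3.10.9 were used. Groups and batches came from the sample titles.

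All members are described, and other genes are named by list or by the highest Pearson's r with a member. The members and lists were chosen with earlier results of these data known. Alternatives changed the window, scaling, peak threshold, pseudocount, filter, overlap, permutation and replicate block, and left out each library in turn.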

Additional observations from a re-analysis of the deposited data

How the results depend on the processing

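Across 150 refits of the H3K27ac slopes 138 kept direction and side of the threshold, 9 lost the call, 1 gained it and 2 reversed. For KLF4 105 of 113 refits were as before and 8 reversed, all of slopes that were not called. Causes of these changes were not tested.

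For H3K27ac, a window of 2.5 kb gave slopes of -0.42 for Snai1 and -0.33 for Zeb1 (calls lost) and -0.63 for Snai2 (call gained). Peaks per 10000 peaks gave -0.84 for Twist2 and -0.13 for Snai1 (calls lost) and 0.18 for Snai2 (reversed). Base pairs not divided by list length gave -1.15 for Twist2, -0.29 for Snai1, -0.43 for Zeb1 and -0.75 for Zeb2 (calls lost), and a pseudocount of 1 gave -1.42 for Twist2 (call lost). A pseudocount of 50 gave -0.56 for Twist1, -0.70 for Twist2 and -0.58 for Zeb2 (calls kept). Zeb2 was steeper than Twist1 there, in a window of 50 kb (-0.94 against -0.90) and in 2.5 kb (-0.82 against -0.71). Leaving out each library moved Snai2 between -0.36 and 0.0031, the latter without MEF replicate 1.

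For KLF4, Twist2 was -0.22 in a window of 50 kb, -0.027 without division by list length, -0.0077 at a q-value of 0.01 and between -0.25 and 0.25 in leave-one-out, lowest without ESC of batch EA-2697. Snai2 was -0.27 in 2.5 kb. Snai1 was -0.13 without division, and leave-one-out gave -0.019 (without ESC of batch EA-2643) to 0.20, with -0.0032 without day 3 of batch EA-3702. Without division the median KLF4 slope of all genes went from 0.032 to -0.114.

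Fibroblast regions lost from day 3 on numbered 10 of 25 with the same number of top peaks (40%, genome 29.4%), and 58 to 96 when a library was left out. They were 90 of 135 without MEF replicate 1 (66.7%, genome 61.7%) and 96 of 143 without MEF replicate 2 (67.1%, genome 61.5%). The number of fibroblast regions thus changed with the setting. The number of genes called lower and higher for H3K27ac, 1779 and 4562, was 614 and 1006 in 2.5 kb, 917 and 2659 for peaks per 10000, 57 and 412 without division, 2212 and 2826 when every list had equally many best peaks, and 1347 and 2839 in 50 kb. It was 1321 and 2968 at a q-value of 0.01, 1572 and 3535 with a pseudocount of 1, 1845 and 4687 with 50, 1647 and 3204 with a peak in at least 6 libraries, 1660 and 3641 with no filter, and 1264 and 3085 with labels permuted within batches. For KLF4 it was 0 and 0 in these settings except with equally many best peaks (166 and 192).

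With the replicate number as a replicate block the Twist1 slope of -0.97 had an adjusted p of 0.00177 by permutation, no member's call changed, and 1327 and 3114 genes were called. Differences between replicates correlated at -0.031 to 0.035 across stages, so no pairing by number was seen. Such a check cannot exclude pairing, because noise of the peak lists can hide it and day 9 came from another batch. Exchanging the day 6 numbers, as the peak names in the lists do (chosen after seeing the data), changed no member's call. No paired analysis by replicate number was possible for KLF4 because nearly all its libraries carry the number 1. With KLF4 labels permuted within batches, where the smallest possible p is 0.0417, the unadjusted p was 0.0417 for Zeb1, 0.125 for Twist1, Snai2 and Zeb2, 0.625 for Snai1 and 0.667 for Twist2, and no member was called.

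The lists hold no reads, and they differ in length and in batch between stages. MEF and ESC libraries of H3K27ac came from 1 batch and day 9 from another. Each stage had 2 or 3 libraries.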
